A study of Mus musculus with 12 samples.

Results

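The average response of mouse embryonic stem (ES) cells to JQ1 is described here over the 3 culture or genotype settings in which the drug was given. All 12 of the 12 libraries enter it, 6 with JQ1 and 6 with the solvent DMSO. The average is the mean of 3 differences between JQ1 and DMSO, 1 in each setting, from a model that holds the settings apart. It was read for all 16987 genes with enough counts to be tested, of 52550 gene identifiers listed.

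The settings were unmodified ES cells in serum/LIF medium, unmodified ES cells in 2iL medium, and GSK3 knockout ES cells in serum/LIF medium. In each, 2 libraries came from cells given 100 nM JQ1 and 2 from cells given DMSO, harvested at 60 h. LIF is the cytokine that sustains self-renewal of mouse ES cells and was in the medium of every group. The 2iL medium replaced serum with N2 and B27 supplements and held the MEK inhibitor PD0325901. Such media usually hold a GSK3 inhibitor too, which the labels do not name. GSK3 is the kinase that marks beta-catenin for destruction. Inactivated mouse embryonic fibroblasts had supported the serum/LIF cells until they were plated on gelatin, and gelatin was the coating for the 2iL cells. The labels do not say which GSK3 gene was deleted in which way, whether the knockout is 1 clone, or whether the 2 libraries of a group came from separate cultures. What a p-value sets a difference against is thus the spread of these libraries, and that spread may be technical.

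JQ1 is a small molecule that fills the acetyl-lysine pocket of the BET proteins, Brd2, Brd3 and Brdt among them. These proteins read acetylated histones at promoters and enhancers, and help to bring P-TEFb, the kinase that releases paused RNA polymerase II, to genes. P-TEFb is held inactive by the protein Hexim1 on 7SK RNA. In ES cells BET proteins are known for sustaining genes that depend on large enhancers, among them regulators of pluripotency. A response that does not depend on the culture setting is one seen in serum/LIF, in 2iL and in the knockout alike.

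Library totals ran from 17869865 to 48723436 expected counts, and the next deepest library held 29882439. At equal depth, set by calculation to the smallest total, 20770 and 20627 genes had a count with JQ1 against 22572 and 22743 with DMSO in serum/LIF. The numbers were 19008 and 19322 with JQ1 against 20796 and 21064 with DMSO in 2iL, and 20700 and 19278 with JQ1 against 21094 and 21262 with DMSO in the knockout. Fewer genes were thus detected in the JQ1 libraries of every setting, with no overlap. Mitochondrially encoded genes took 6.51% of counts with JQ1 and 9.38% with DMSO on average, a difference of -2.87 percentage points. The spread between libraries of a group was 0.859 percentage points (pooled SD). The difference passed an exact two-sided permutation test within settings (p = 0.00926, the smallest that the arrangements within settings can give).

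All 10 markers of ES cells on the list used were found in every setting. They summed to 1598 to 2363 CPM with JQ1 against 2191 to 2771 CPM with DMSO in serum/LIF, 5055 to 5162 CPM with JQ1 against 4870 to 5296 CPM with DMSO in 2iL, and 3827 to 4067 CPM with JQ1 against 3798 to 4195 CPM with DMSO in the knockout. For single genes, CPM are TMM-scaled counts relative to library size. The marker sums and the counts of markers under 1 CPM use library totals without TMM scaling. CPM are not scaled to gene length, so they compare libraries and not genes. The 14 fibroblast markers summed to 1179 and 1662 CPM with JQ1 against 1529 and 1875 CPM with DMSO in serum/LIF, and to 208 and 299 CPM with JQ1 against 412 and 613 CPM with DMSO in the knockout. In 2iL they summed to 5.35 and 6.94 CPM with JQ1 against 11.3 and 16.4 CPM with DMSO, with Dcn, Fap, Lum and Postn at 0 in all 4 libraries. In bulk RNA, fewer cells of a type and less RNA per cell cannot be told apart. Gsk3a had 78.4 and 87.2 CPM with JQ1 against 76.8 and 65.1 CPM with DMSO in serum/LIF, 129.9 and 118 CPM with JQ1 against 107 and 89.3 CPM with DMSO in 2iL, and 32.9 and 28.2 CPM with JQ1 against 24.7 and 23.4 CPM with DMSO in the knockout. Gsk3b had 110.5 and 86.3 CPM with JQ1 against 74.7 and 72.2 CPM with DMSO in serum/LIF, 156 and 158 CPM with JQ1 against 93.7 and 105 CPM with DMSO in 2iL, and 61.1 and 58.0 CPM with JQ1 against 51.2 and 42.5 CPM with DMSO in the knockout. Both genes were lowest in the libraries labelled knockout but were not at 0.

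JQ1 raised fewer genes than it lowered, and the falls were larger than the rises. Of 16987 genes, 7739 (45.6%) passed the test of the average at an adjusted p under 0.05, 3382 higher (19.9%) and 4357 lower (25.6%). The median average log2 fold change was 0.36 among the higher genes and -1.11 among the lower genes. Past a log2 fold change of 1 there were 136 higher genes (0.801%) and 2357 lower genes (13.9%). The median over all genes tested was -0.048. At an unadjusted p under 0.05, 8918 genes passed (52.5%). The JQ1 libraries lay above the DMSO libraries in each setting for 1715 genes (10.1%) and below them for 2381 (14.0%).

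Direction moved with level. Of the 5663 genes with the lowest mean CPM (0.102 to 3.51 CPM), 171 were higher and 1939 lower. Of the 5662 in the middle 1156 were higher and 1658 lower, and of the 5662 above 32.0 CPM 2055 were higher and 760 lower. Counting only genes with a mean of at least 5 CPM, 3190 were higher and 2120 lower, so that 60.1% of calls were higher against 43.7% over all genes. Of 438 long intergenic noncoding RNA genes, 22 were higher and 141 lower, and of 14453 protein-coding genes 3276 were higher and 3814 lower.

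**Figure D1:**
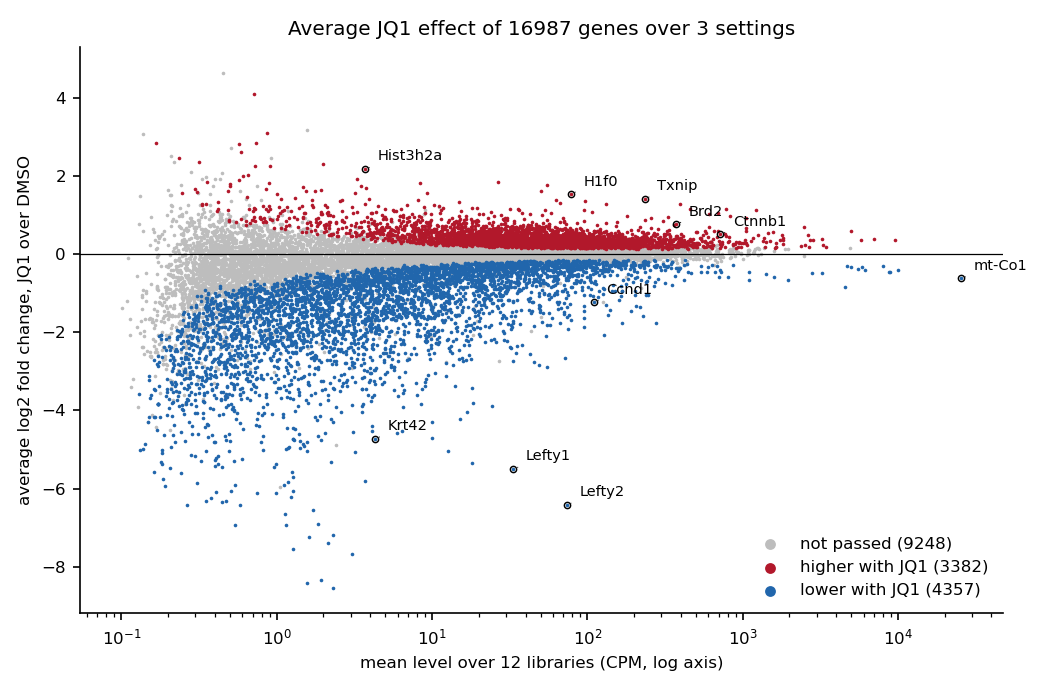
Average log2 fold change, JQ1 over DMSO, of each gene tested (vertical axis) against its mean level over 12 libraries in CPM (horizontal log axis). Each point is 1 gene, red for the 3382 called higher, blue for the 4357 called lower and grey for the 9248 not passed, and the blue points reach further from 0 than the red, mostly at low levels.

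The 3 settings gave related but not equal responses. Across the 16987 genes, Pearson's r of the log2 fold changes was 0.566 between 2iL and serum/LIF, 0.532 between the knockout and serum/LIF and 0.473 between the knockout and 2iL. These 3 contrasts share no library, and genes are not independent replicates. The test passed 3623 genes in serum/LIF (21.3%), 4834 in 2iL (28.5%) and 5799 in the knockout (34.1%). In each of the 3 settings and in the same direction, 1207 genes passed (7.11%), 385 higher (2.27%) and 822 lower (4.84%). The 385 are 26.6% of the genes higher in serum/LIF, 20.3% of those in 2iL and 15.5% of those in the knockout. The 822 are 37.8% of the genes lower in serum/LIF, 28.0% of those in 2iL and 24.8% of those in the knockout. The median average log2 fold change was 0.59 for the 385 and -1.91 for the 822.

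A response was called even when the 95% intervals of all 3 differences between settings lay within 1 log2 unit of 0. Of the genes called on average, 2839 (16.7% of genes tested) were even, 2197 higher (12.9%) and 642 lower (3.78%), and 441 of the even genes were also called in each setting (2.60%). The test of a difference between settings passed 1959 genes (11.5%), of which 1217 were also called on average (7.16%). Both applied to 48 genes, and 3731 genes called on average met neither. With 2 libraries per group, meeting neither shows neither an equal nor an unequal response. Of the genes called on average, 1280 had fold changes of both signs over the 3 settings (7.54%) and 942 were called in no single setting (5.55%). Over all genes, 249 were called in opposite directions in 2 settings (1.47%). An average is therefore a summary of all 3 settings for some genes and of 1 setting for others.

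Single libraries moved several of these counts by more than 1.5 times. Genes higher in each setting, 385 with all libraries and the base of the shares above, numbered 207 without the second serum/LIF DMSO library, 219 and 204 without the first and the second 2iL JQ1 library, 237 without the second knockout DMSO library, and 228 and 246 without the first and the second knockout JQ1 library. Genes called in each setting in the same direction numbered 796 without the second serum/LIF DMSO library and 804 without the second 2iL JQ1 library. Genes that differed between settings numbered 3022 without the second serum/LIF JQ1 library and 2987 without the second 2iL DMSO library. They numbered 889 and 959 without the first and the second 2iL JQ1 library, 785 without the first knockout DMSO library, and 838 and 849 without the first and the second knockout JQ1 library. Even lower genes, 642 with all libraries, numbered 410 and 423 without the first and the second 2iL JQ1 library, 390 without the second knockout DMSO library and 419 without the first knockout JQ1 library. The average effect stayed between 6826 and 7774 genes, whichever library was left out.

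Txnip rose in each setting by an even amount. It encodes an arrestin-like protein that binds thioredoxin and limits glucose uptake, and it lies at ENSMUSG00000038393.14, chromosome 3, 96557957 to 96561883, plus strand (GRCm38). Its promoter is shown with those of Arrdc4, a related arrestin-domain gene, of Sesn3, a sestrin that restrains mTORC1 and is a known FoxO target, and of Hexim1, the P-TEFb inhibitor. These 4 genes were called higher in each setting, and the sequences give the letters next to each start site. They are RefSeq promoters on GRCm38.p6, from 250 bases before to 50 after the start site, printed on the gene's strand. Capitals mark the CCAAT box, the forkhead-type word GTAAACA, and a pair of CACGNG words spaced 5 bases apart, as in carbohydrate response elements. Each was searched on both strands. None of the marked words overlap.
Txnip, chr3:96557707-96558006: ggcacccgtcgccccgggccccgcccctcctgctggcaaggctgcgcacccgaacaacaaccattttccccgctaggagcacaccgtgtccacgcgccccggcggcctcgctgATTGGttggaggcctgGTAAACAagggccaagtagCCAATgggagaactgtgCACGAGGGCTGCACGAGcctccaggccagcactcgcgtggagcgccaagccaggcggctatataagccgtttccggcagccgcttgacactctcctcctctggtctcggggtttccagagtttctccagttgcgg
Arrdc4, chr7:68749189-68749488: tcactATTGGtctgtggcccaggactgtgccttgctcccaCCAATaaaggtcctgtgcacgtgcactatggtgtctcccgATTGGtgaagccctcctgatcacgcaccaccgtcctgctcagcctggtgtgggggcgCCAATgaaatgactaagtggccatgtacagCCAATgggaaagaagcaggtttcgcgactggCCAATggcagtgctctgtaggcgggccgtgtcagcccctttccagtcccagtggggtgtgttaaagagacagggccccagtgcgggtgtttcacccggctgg
Sesn3, chr9:14276051-14276350: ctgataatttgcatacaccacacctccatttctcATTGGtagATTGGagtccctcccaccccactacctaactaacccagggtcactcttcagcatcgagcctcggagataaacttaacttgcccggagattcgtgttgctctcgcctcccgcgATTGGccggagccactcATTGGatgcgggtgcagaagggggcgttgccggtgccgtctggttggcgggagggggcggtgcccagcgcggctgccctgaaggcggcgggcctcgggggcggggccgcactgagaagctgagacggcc
Hexim1, chr11:103116075-103116374: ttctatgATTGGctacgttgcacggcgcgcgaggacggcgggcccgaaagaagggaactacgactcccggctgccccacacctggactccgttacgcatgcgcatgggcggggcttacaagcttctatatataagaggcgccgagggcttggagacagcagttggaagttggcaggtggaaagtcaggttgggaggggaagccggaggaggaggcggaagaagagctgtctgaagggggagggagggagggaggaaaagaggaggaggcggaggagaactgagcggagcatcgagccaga
The Txnip window holds 1 GTAAACA, 2 CCAAT words and 1 paired CACGNG word, which begins 85 bases before the start site. Of 32851 RefSeq promoters of this length, 0.0487% hold the paired word, 3.65% GTAAACA and 37.4% CCAAT. The Arrdc4 window holds 6 CCAAT words, the Sesn3 window 4 and the Hexim1 window 1. These matches describe letters and are not measured binding sites.

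Txnip stood at 215 and 208 CPM with JQ1 against 65.8 and 69.2 CPM with DMSO in serum/LIF, 490.2 and 629.6 CPM with JQ1 against 211 and 227 CPM with DMSO in 2iL, and 240.1 and 246 CPM with JQ1 against 105 and 98.0 CPM with DMSO in the knockout. Its JQ1 libraries were above the DMSO libraries of their own setting in all 3, although DMSO levels in 2iL were close to JQ1 levels in serum/LIF. The average log2 fold change was 1.42 ± 0.0682 (SE, adjusted p = 2.33e-08), with 1.65 in serum/LIF, 1.35 in 2iL and 1.26 in the knockout. Its expected counts were not whole in all 12 libraries, so some reads were shared with other loci.

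Most members of a list of genes linked to PI3K, AKT and FoxO, which holds Txnip, were higher. This list, like all gene lists here, was chosen with earlier results of these data known. No list's share of higher or lower genes is thus an independent result. FoxO factors are held out of the nucleus by AKT and raise genes of stress resistance and low growth signalling. Of 20 list members tested, 12 were higher and 2 lower, with 5 higher in each setting and a median of 0.30, against 19.9% higher, 25.6% lower and -0.048 over all genes. Sesn3 stood at 109 and 95.6 CPM with JQ1 against 36.4 and 45.8 CPM with DMSO in serum/LIF, 102 and 126 CPM with JQ1 against 34.0 and 50.7 CPM with DMSO in 2iL, and 56.1 and 53.1 CPM with JQ1 against 22.7 and 18.1 CPM with DMSO in the knockout. The groups did not overlap in any setting, with an average of 1.39 ± 0.11 (SE, adjusted p = 8.61e-07). It was among the 5 higher genes with the smallest range over settings and a log2 of at least 1. Pik3r1, the regulatory p85 subunit of PI3K, stood at 35.1 and 30.3 CPM with JQ1 against 14.4 and 14.2 CPM with DMSO in serum/LIF, 72.5 and 63.5 CPM with JQ1 against 28.9 and 30.6 CPM with DMSO in 2iL, and 33.5 and 29.8 CPM with JQ1 against 16.9 and 13.2 CPM with DMSO in the knockout. It did not overlap between groups either, with an average of 1.15 ± 0.0819 (SE, adjusted p = 4.21e-07). Sesn1 rose by an average log2 of 0.70 ± 0.0773 (SE, adjusted p = 1.48e-05), Arrdc4 by 0.65 ± 0.0655 (SE, adjusted p = 6.33e-06), and Irs2, an insulin receptor substrate, by 0.93 ± 0.16 (SE, adjusted p = 5.52e-04). Foxo1 itself rose by 0.42 ± 0.0802 (SE, adjusted p = 9.53e-04) and was called in 2iL and in the knockout only, with no difference between settings passing the test (adjusted p = 0.305).

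**Figure D2:**
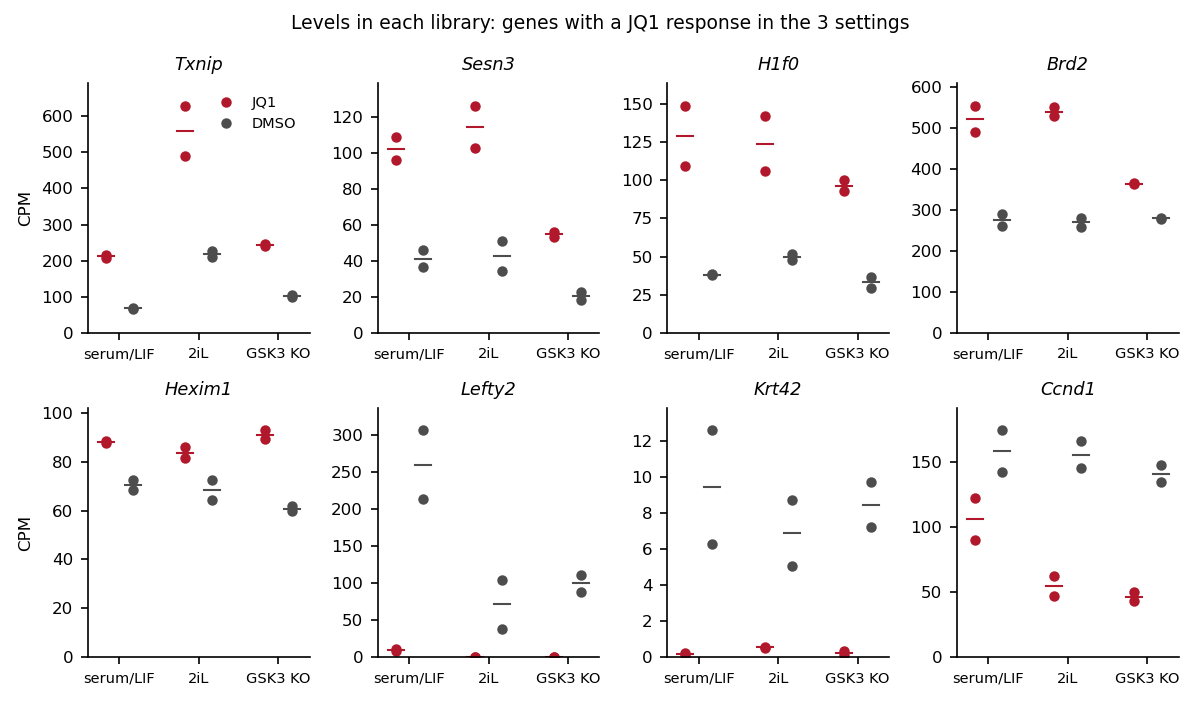
Level of 8 genes in each library in CPM (vertical axes, from 0), by setting along the horizontal axis, with JQ1 in red left of DMSO in grey. Each point is 1 library and each bar the mean of 2, and in each of the 8 genes the JQ1 and DMSO points of a setting do not overlap.

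Histone genes rose or did not pass, and no tested member fell. Linker histones bind DNA between nucleosomes, and all 6 tested were higher, 3 of them in each setting, with a median of 1.57. H1f0, the replacement linker histone of slowly dividing cells, stood at 109 and 149 CPM with JQ1 against 38.3 and 37.7 CPM with DMSO in serum/LIF, 106 and 142 CPM with JQ1 against 47.7 and 51.8 CPM with DMSO in 2iL, and 99.9 and 92.8 CPM with JQ1 against 36.4 and 29.5 CPM with DMSO in the knockout. H1fx, a further linker variant, stood at 52.7 and 83.2 CPM with JQ1 against 19.4 and 22.9 CPM with DMSO in serum/LIF, 81.8 and 85.0 CPM with JQ1 against 31.2 and 28.6 CPM with DMSO in 2iL, and 78.4 and 76.8 CPM with JQ1 against 25.1 and 21.9 CPM with DMSO in the knockout. In both genes every JQ1 library was above every DMSO library of the study. Their average log2 fold changes were 1.54 ± 0.0979 (SE, adjusted p = 1.76e-07) and 1.63 ± 0.10 (SE, adjusted p = 1.76e-07), both even. Hist1h1c, a linker histone of the main histone cluster, stood at 11.9 and 10.6 CPM with JQ1 against 7.82 and 6.29 CPM with DMSO in serum/LIF, 15.4 and 16.2 CPM with JQ1 against 3.17 and 2.21 CPM with DMSO in 2iL, and 12.4 and 9.69 CPM with JQ1 against 2.24 and 2.40 CPM with DMSO in the knockout. It rose least in serum/LIF, with 0.66 in serum/LIF, 2.55 in 2iL and 2.25 in the knockout, and the difference between settings passed (adjusted p = 0.00345).

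Of 23 core histone genes tested, 14 were higher and 0 lower, with a median of 0.69. The 9 others did not pass. Hist3h2a, an H2A gene with the highest average among genes called in each setting and above 5 CPM in 1 treatment, stood at 4.43 and 4.74 CPM with JQ1 against 1.79 and 1.38 CPM with DMSO in serum/LIF, 9.05 and 5.99 CPM with JQ1 against 2.39 and 0.829 CPM with DMSO in 2iL, and 8.58 and 3.56 CPM with JQ1 against 1.17 and 0.503 CPM with DMSO in the knockout. Its neighbour in name Hist3h2ba rose by 2.27 ± 0.32 (SE, adjusted p = 9.64e-05), at levels under 3 CPM in every library. H3f3b, which encodes the replication-independent histone H3.3, stood at 993 and 1118 CPM with JQ1 against 481 and 436 CPM with DMSO in serum/LIF, 1089 and 1223 CPM with JQ1 against 684 and 525 CPM with DMSO in 2iL, and 922 and 1069 CPM with JQ1 against 385 and 425 CPM with DMSO in the knockout and rose by 1.15 ± 0.0793 (SE, adjusted p = 3.42e-07). H2afx, the H2A variant phosphorylated at DNA breaks, rose by 1.04 ± 0.0905 (SE, adjusted p = 2.00e-06). Most histone genes of the replication-dependent clusters make messages without a poly(A) tail, the labels name an mRNA library kit, and the selection step and its part in these levels were not tested. Reads of near-identical histone copies may also have been divided between genes, since Hist3h2a had counts that were not whole in 12 of 12 libraries.

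**Figure D3:**
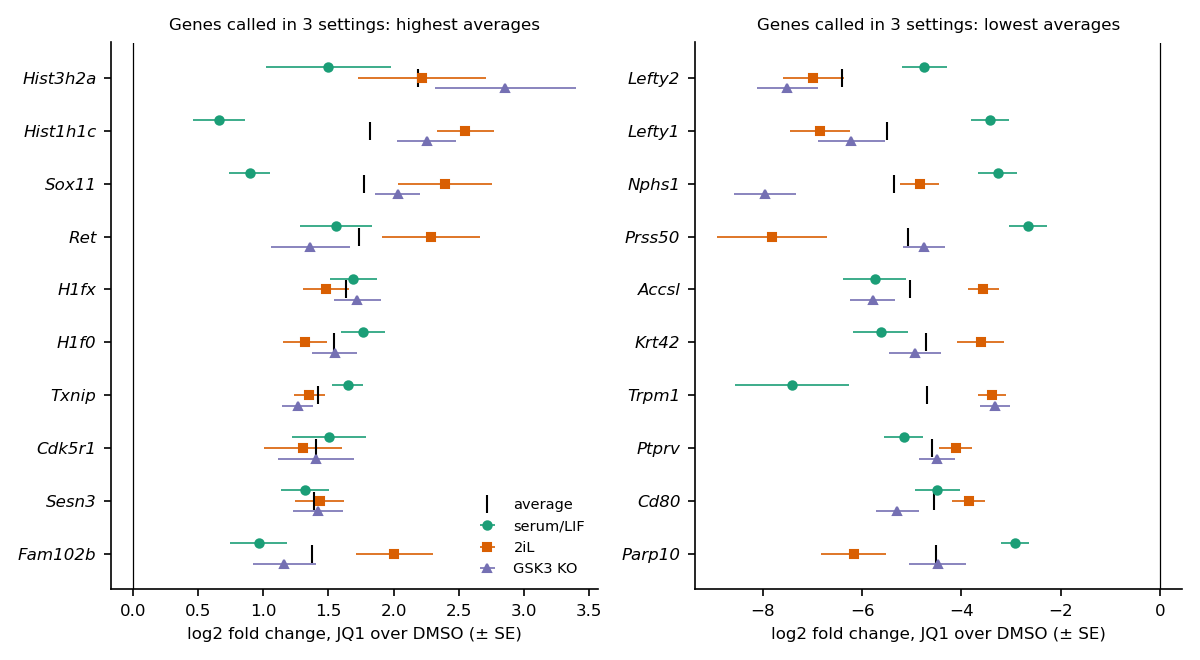
Log2 fold change, JQ1 over DMSO, in each setting (horizontal axes, with SE bars) of the 10 genes with the highest and the 10 with the lowest average among those called in each setting with at least 5 CPM in the mean of JQ1 or of DMSO. Circles are serum/LIF, squares 2iL, triangles the knockout and black ticks the average, and the lowest averages lie further from 0 than the highest. Prss50 in 2iL and Trpm1 in serum/LIF had no count with JQ1, so the sizes of these points, their SE bars and their averages are not firm. With empty libraries taken as 3 counts each, the averages were -3.45 for Prss50 and -3.20 for Trpm1.

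The other genes with the highest averages were of mixed function. Sox11, a transcription factor of neural precursors, stood at 172 and 144 CPM with JQ1 against 93.8 and 75.9 CPM with DMSO in serum/LIF, 1.99 and 2.37 CPM with JQ1 against 0.367 and 0.461 CPM with DMSO in 2iL, and 65.2 and 71.0 CPM with JQ1 against 19.6 and 13.6 CPM with DMSO in the knockout. All JQ1 libraries were above their DMSO counterparts, but the levels in 2iL were far below those of the other settings. Its average was 1.77 ± 0.14 (SE, adjusted p = 9.22e-07), and the settings differed (adjusted p = 0.0127). Ret, the receptor tyrosine kinase for GDNF ligands, rose by 1.74 ± 0.18 (SE, adjusted p = 1.05e-05). Cdk5r1, the p35 activator of the kinase Cdk5, rose by 1.40 ± 0.17 (SE, adjusted p = 2.81e-05), with 1.51 in serum/LIF, 1.30 in 2iL and 1.40 in the knockout. Fam102b rose by 1.38 ± 0.15 (SE, adjusted p = 1.03e-05). Slc25a30, a mitochondrial carrier, and Cpne1, a calcium-dependent phospholipid-binding protein, rose by 1.22 ± 0.15 (SE, adjusted p = 2.65e-05) and 1.03 ± 0.0902 (SE, adjusted p = 2.16e-06) and were, with Sesn3, Pik3r1 and Cdk5r1, the 5 higher genes with the smallest range over settings and a log2 of at least 1. Cdk5r1 and Slc25a30 did not meet the definition of an even response.

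Among the targets of the drug, Brd2 was higher and Brd3 did not pass. Brd2 (ENSMUSG00000024335.19, chromosome 17, 34112023 to 34122634, minus strand) stood at 553 and 488 CPM with JQ1 against 289.8 and 259 CPM with DMSO in serum/LIF, 528 and 549.6 CPM with JQ1 against 259 and 279 CPM with DMSO in 2iL, and 362 and 364 CPM with JQ1 against 281 and 277 CPM with DMSO in the knockout. The JQ1 libraries were above all DMSO libraries of the study, and the rise was smaller in the knockout, with 0.92 in serum/LIF, 1.00 in 2iL and 0.38 in the knockout. The average was 0.77 ± 0.0580 (SE, adjusted p = 6.46e-07), and the settings differed within the even margin (adjusted p = 0.0233). Brd3 had an average of 0.061 ± 0.0682 (SE, adjusted p = 0.503), with 0.11 in serum/LIF, -0.20 in 2iL and 0.27 in the knockout. Brdt, the testis member, had an average of -0.98 ± 0.32 (SE, adjusted p = 0.0241) at levels of 0.388 to 5.49 CPM. The Brdt call ended without the first serum/LIF JQ1 library (adjusted p = 0.054), the first 2iL DMSO library (0.113), the second 2iL JQ1 library (0.0827) or the first knockout JQ1 library (0.0503), and its value without the first 2iL DMSO library was -0.51.

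Of 7 genes of P-TEFb and the 7SK complex, 2 were higher and 1 lower, a share called of 42.9% against 45.6% over all genes. Hexim1 (ENSMUSG00000048878.6, chromosome 11, 103116231 to 103119725, plus strand) stood at 88.5 and 87.6 CPM with JQ1 against 72.4 and 68.2 CPM with DMSO in serum/LIF, 81.3 and 86.1 CPM with JQ1 against 72.4 and 64.3 CPM with DMSO in 2iL, and 89.2 and 92.7 CPM with JQ1 against 59.7 and 61.7 CPM with DMSO in the knockout. Every JQ1 library was above every DMSO library of the study. The average was 0.40 ± 0.0571 (SE, adjusted p = 1.12e-04), a small rise that was called in each setting and was even. Mepce, the 7SK capping enzyme, rose by 0.36 ± 0.0634 (SE, adjusted p = 5.73e-04), and Hexim2, a related inhibitor, fell with an average of -0.79 ± 0.15 (SE, adjusted p = 8.65e-04). The other 4 of 7 members, the kinase and cyclin subunits of P-TEFb among them, did not pass. Of 16 elongation and pausing factors, 8 were higher and 0 lower, including Supt5, a subunit of DSIF, at 0.32 ± 0.0505 (SE, adjusted p = 2.22e-04). Their share called was 50% against 45.6% over all genes, and none was called the same way in each setting. Aff4, the scaffold of the super elongation complex, had 0.40 in serum/LIF, 1.05 in 2iL and -0.35 in the knockout, and the settings differed (adjusted p = 0.00509). Eaf2 had the highest average of the list, 2.01 ± 0.40 (SE, adjusted p = 0.00137), at no more than 1.20 CPM in any library.

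Of 31 Mediator subunits, 14 were higher and 3 lower, with a median of 0.13 and 1, Med16, higher in each setting. Its average was 0.47 ± 0.0729 (SE, adjusted p = 2.08e-04). Med13l had the highest average, 0.56 ± 0.0766 (SE, adjusted p = 7.53e-05), but 0.88 in serum/LIF, 0.79 in 2iL and 0.021 in the knockout. Med6 fell with an average of -0.31 ± 0.0785 (SE, adjusted p = 0.00585) and had -0.57 in serum/LIF, -0.52 in 2iL and 0.15 in the knockout.

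Some genes used as readouts of BET inhibition in human cells moved as they are known to, and others did not pass. Of 11 tested, 3 were higher (Txnip, Hexim1 and an H2B histone gene) and 4 lower. Ccnd2, a D-type cyclin, stood at 42.1 and 41.6 CPM with JQ1 against 63.5 and 80.3 CPM with DMSO in serum/LIF, 0.626 and 0.474 CPM with JQ1 against 4.22 and 2.95 CPM with DMSO in 2iL, and 23.2 and 20.8 CPM with JQ1 against 44.0 and 63.9 CPM with DMSO in the knockout. It was lower in every setting, with an average of -1.59 ± 0.14 (SE, adjusted p = 2.76e-06), and fell most in 2iL, where its level was low. Serpini1, a serpin that rises with BET inhibition in human cells, had an average of -0.014 ± 0.16 (SE, adjusted p = 0.969). Myc had 0.33 in serum/LIF, -0.47 in 2iL and -0.41 in the knockout and an average of -0.18 ± 0.0879 (SE, adjusted p = 0.112). The settings differed for Myc (adjusted p = 0.0346), and without the second knockout JQ1 library its average passed at -0.24 (adjusted p = 0.049). Cdk6 had 0.31 in serum/LIF, -0.62 in 2iL and -0.66 in the knockout and an average of -0.33 ± 0.11 (SE, adjusted p = 0.026). The Cdk6 call ended when any of 8 single libraries was left out (adjusted p = 0.0507 to 0.0900), namely both 2iL JQ1, both knockout JQ1, the first serum/LIF DMSO, the second serum/LIF JQ1, the second 2iL DMSO and the first knockout DMSO library, with a value of -0.21 without the second serum/LIF JQ1 library.

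Among 3 lists of chromatin regulators more members were higher than lower, as was so in the third of all genes with the highest levels, where 36.3% were higher and 13.4% lower, against 19.9% and 25.6% over all genes. Of 35 bromodomain proteins outside the BET family and acetyltransferases, 16 were higher and 3 lower, with a median of 0.17. Kat8, the acetyltransferase of histone H4 lysine residues, and Brd1, a scaffold of acetyltransferase complexes, were higher in each setting, at 0.66 ± 0.0798 (SE, adjusted p = 2.95e-05) and 0.56 ± 0.0715 (SE, adjusted p = 4.88e-05). Kat2b, the acetyltransferase PCAF, was lower, at -0.74 ± 0.0860 (SE, adjusted p = 2.13e-05). Sp140, a nuclear body protein, had an average of -1.32 ± 0.33 (SE, adjusted p = 0.00606), most of it from serum/LIF, where its log2 fold change was -2.71. Of 15 histone deacetylases, 7 were higher and 0 lower, a share called of 46.7% against 45.6% over all genes, with a median of 0.12. Among them Hdac6 rose by 0.45 ± 0.0691 (SE, adjusted p = 1.89e-04) and Hdac2 by 0.31 ± 0.0533 (SE, adjusted p = 4.68e-04), and no deacetylase was called the same way in each setting.

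Of 33 Polycomb genes, 14 were higher and 3 lower, with a median of 0.20. Pcgf5, a RING finger subunit of variant PRC1, rose by 0.84 ± 0.0792 (SE, adjusted p = 3.90e-06). Rybp, another subunit of variant PRC1, and Suz12, a core subunit of PRC2, were also higher in each setting, at 0.58 ± 0.0521 (SE, adjusted p = 2.72e-06) and 0.45 ± 0.0543 (SE, adjusted p = 2.99e-05). Phf19, an accessory subunit of PRC2, was the one member lower in each setting. It stood at 1.78 and 3.19 CPM with JQ1 against 4.30 and 8.19 CPM with DMSO in serum/LIF, 0.456 and 0.690 CPM with JQ1 against 3.95 and 5.21 CPM with DMSO in 2iL, and 0.927 and 1.73 CPM with JQ1 against 3.76 and 3.52 CPM with DMSO in the knockout. The groups were apart in every setting at these low levels, with an average of -1.92 ± 0.25 (SE, adjusted p = 4.71e-05).

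Of 14 genes of DNA methylation and its removal, 7 were higher and 3 lower. Dnmt3b, a de novo methyltransferase, stood at 780.4 and 964 CPM with JQ1 against 462 and 564 CPM with DMSO in serum/LIF, 102 and 104 CPM with JQ1 against 47.3 and 50.7 CPM with DMSO in 2iL, and 192 and 186 CPM with JQ1 against 125 and 109 CPM with DMSO in the knockout. It was higher in each setting, and its average was 0.85 ± 0.0745 (SE, adjusted p = 2.18e-06). Dnmt3l, its catalytically inactive partner, had 0.28 in serum/LIF, 3.83 in 2iL and -0.25 in the knockout, and Tet1, which oxidises methylcytosine, had -1.32 in serum/LIF, 0.059 in 2iL and -1.90 in the knockout. Both differed between settings (adjusted p = 9.91e-04 and 0.00509).

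The 2 lowest averages among genes called in each setting with at least 5 CPM were those of the Nodal inhibitors Lefty2 and Lefty1. Nodal is a TGF-beta family ligand that signals with the co-receptor Tdgf1 through Smad2, Smad4 and Foxh1, and its targets Lefty1 and Lefty2 encode secreted inhibitors of Nodal itself. Of 17 members tested, 10 were lower and 2 higher, with 7 lower in each setting and a median of -0.60. Over all genes 4.84% were lower in each setting. The Nodal list was chosen with earlier results of these data known, so its counts are not an independent result.

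Among the ligands, Nodal stood at 42.5 and 33.4 CPM with JQ1 against 187 and 181 CPM with DMSO in serum/LIF, 76.1 and 56.4 CPM with JQ1 against 127 and 105 CPM with DMSO in 2iL, and 14.5 and 11.5 CPM with JQ1 against 37.2 and 39.3 CPM with DMSO in the knockout. Every JQ1 library was below the DMSO libraries of its setting. The average was -1.54 ± 0.0975 (SE, adjusted p = 1.72e-07), and the fall was largest in serum/LIF, with -2.27 in serum/LIF, -0.81 in 2iL and -1.55 in the knockout (adjusted p of the difference = 0.00551). Gdf3, a related ligand that shares the receptors, stood at 29.3 and 36.2 CPM with JQ1 against 88.8 and 119 CPM with DMSO in serum/LIF, 49.5 and 52.1 CPM with JQ1 against 141 and 145 CPM with DMSO in 2iL, and 30.1 and 31.6 CPM with JQ1 against 106 and 119 CPM with DMSO in the knockout. Its fall was even, with an average of -1.67 ± 0.0833 (SE, adjusted p = 2.65e-08).

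Among the co-receptors and transducers, Tdgf1 was lower in each setting at -1.18 ± 0.12 (SE, adjusted p = 8.52e-06) and Foxh1, the forkhead partner of Smad2, at -1.01 ± 0.0789 (SE, adjusted p = 8.26e-07). Tdgf1 had counts that were not whole in 12 of 12 libraries. Smad4, the shared Smad, stood at 94.3 and 89.7 CPM with JQ1 against 67.0 and 58.1 CPM with DMSO in serum/LIF, 88.5 and 90.1 CPM with JQ1 against 62.0 and 66.5 CPM with DMSO in 2iL, and 97.9 and 99.6 CPM with JQ1 against 67.7 and 65.2 CPM with DMSO in the knockout. It went the other way, with an average of 0.53 ± 0.0586 (SE, adjusted p = 1.35e-05) and a call in each setting. The 5 members that did not pass were activin receptors and other Smads.

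Among the targets, Lefty2 (ENSMUSG00000066652.5, chromosome 1, 180893108 to 180899103, plus strand) had the lowest average of the genes called in each setting with at least 5 CPM in 1 treatment. It stood at 8.60 and 10.7 CPM with JQ1 against 213 and 306 CPM with DMSO in serum/LIF, 0.171 and 0.862 CPM with JQ1 against 38.9 and 105 CPM with DMSO in 2iL, and 0.206 and 1.06 CPM with JQ1 against 88.5 and 111 CPM with DMSO in the knockout. In 2iL and the knockout the JQ1 libraries held about 1 CPM or less, whereas in serum/LIF 8.60 and 10.7 CPM were left. The average log2 fold change was -6.41 ± 0.32 (SE, adjusted p = 3.00e-08). Lefty1 (ENSMUSG00000038793.8, chromosome 1, 180935022 to 180938400, plus strand) stood at 11.9 and 13.4 CPM with JQ1 against 105 and 166 CPM with DMSO in serum/LIF, 0.171 and 0.431 CPM with JQ1 against 19.7 and 54.6 CPM with DMSO in 2iL, and 0.172 and 0.223 CPM with JQ1 against 12 and 17.3 CPM with DMSO in the knockout. It fell least in serum/LIF, with an average of -5.49 ± 0.32 (SE, adjusted p = 9.84e-08) and a difference between settings that passed (adjusted p = 0.024). For Lefty2 that difference did not pass (adjusted p = 0.0565). Lefty1 and Lefty2 are close paralogs on 1 chromosome, so that a small part of their reads may have been divided between them.

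The other genes with the lowest averages had various functions in other tissues. Nphs1, the kidney slit diaphragm protein nephrin, stood at 1.35 and 2.32 CPM with JQ1 against 12.2 and 23.5 CPM with DMSO in serum/LIF, 1.31 and 2.98 CPM with JQ1 against 49.1 and 78.2 CPM with DMSO in 2iL, and 0.0687 and 0.111 CPM with JQ1 against 22.6 and 22.2 CPM with DMSO in the knockout. The JQ1 libraries were far below DMSO in each setting and nearly empty in the knockout. Its average was -5.36 ± 0.28 (SE, adjusted p = 3.64e-08), and the settings differed (adjusted p = 0.0175). Krt42, a type I keratin, stood at 0.130 and 0.242 CPM with JQ1 against 6.27 and 12.6 CPM with DMSO in serum/LIF, 0.512 and 0.604 CPM with JQ1 against 5.09 and 8.75 CPM with DMSO in 2iL, and 0.378 and 0.111 CPM with JQ1 against 7.21 and 9.72 CPM with DMSO in the knockout. No JQ1 library exceeded 0.604 CPM and no DMSO library was under 5.09 CPM, with an average of -4.72 ± 0.30 (SE, adjusted p = 1.76e-07).

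Ptprv, a receptor-type tyrosine phosphatase, fell with an average of -4.59 ± 0.21 (SE, adjusted p = 1.78e-08), and Cd80, the co-stimulatory ligand of immune cells, with -4.54 ± 0.23 (SE, adjusted p = 3.64e-08). Accsl stood at 0 and 0.145 CPM with JQ1 against 3.58 and 4.50 CPM with DMSO in serum/LIF, 5.58 and 3.32 CPM with JQ1 against 53.2 and 50.4 CPM with DMSO in 2iL, and 0.103 and 0.557 CPM with JQ1 against 15.0 and 16.7 CPM with DMSO in the knockout. It fell least in 2iL, where DMSO levels were highest, with an average of -5.03 ± 0.27 (SE, adjusted p = 4.27e-08), or -6.30 without the second serum/LIF JQ1 library, and a difference between settings (adjusted p = 0.0461). Parp10, a mono-ADP-ribosyltransferase, fell with an average of -4.52 ± 0.30 (SE, adjusted p = 2.23e-07), or -5.33 without the second 2iL JQ1 library. Prss50, a testis serine protease, had no count in 2iL with JQ1, and Trpm1, a cation channel of the retina, had none in serum/LIF with JQ1. With empty libraries taken as 3 counts each, Prss50 was at least 8.10-fold lower with JQ1 in 2iL, and Trpm1 at least 7.24-fold lower with JQ1 in serum/LIF. In the other settings Prss50 had 0.608 and 1.06 CPM with JQ1 against 4.20 and 6.50 CPM with DMSO in serum/LIF and 0.275 and 0.613 CPM with JQ1 against 10.4 and 12.2 CPM with DMSO in the knockout, and Trpm1 had 3.76 and 3.36 CPM with JQ1 against 32.3 and 41.5 CPM with DMSO in 2iL and 1.99 and 1.23 CPM with JQ1 against 17.1 and 16.0 CPM with DMSO in the knockout.

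Of the lower genes called in each setting with a log2 of at least 1, those with the smallest range over settings included Birc3, an inhibitor of apoptosis, at -1.25 ± 0.16 (SE, adjusted p = 4.64e-05), and Mmrn2, a matrix glycoprotein, at -2.44 ± 0.17 (SE, adjusted p = 3.39e-07). They also included Scube3, a secreted signalling glycoprotein, at -1.56 ± 0.14 (SE, adjusted p = 2.38e-06), and Neb, the muscle protein nebulin, at -1.13 ± 0.18 (SE, adjusted p = 2.19e-04). Mmrn2 stood at 1.56 and 2.08 CPM with JQ1 against 8.53 and 11.5 CPM with DMSO in serum/LIF, 11.5 and 8.54 CPM with JQ1 against 56.8 and 47.1 CPM with DMSO in 2iL, and 3.23 and 1.39 CPM with JQ1 against 14.4 and 13.1 CPM with DMSO in the knockout. Its log2 fold changes were -2.44 in serum/LIF, -2.38 in 2iL and -2.50 in the knockout, a likeness that the choice by range fixed, and Mmrn2 and Neb did not meet the definition of an even response.

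Most germ cell genes were lower on average, and two-cell-like genes fell in serum/LIF and in 2iL. In the third of all genes with the lowest levels 34.2% were lower and 3.02% higher, with a median of -0.60. Of 26 germline and meiosis genes tested, 21 were lower and 1 higher, with 11 lower in each setting and a median of -1.51 (-1.53 with 5 genes that had an empty group set at the floor). Sycp3, of the synaptonemal complex, stood at 2.69 and 7.12 CPM with JQ1 against 10.7 and 15.8 CPM with DMSO in serum/LIF, 1.20 and 1.21 CPM with JQ1 against 16.8 and 14.6 CPM with DMSO in 2iL, and 1.17 and 1.56 CPM with JQ1 against 8.23 and 7.38 CPM with DMSO in the knockout. The groups did not overlap in any setting, with an average of -2.56 ± 0.22 (SE, adjusted p = 1.73e-06). Hormad2, a meiotic checkpoint protein, fell with an average of -3.82 ± 0.28 (SE, adjusted p = 5.24e-07), or -4.91 without the second serum/LIF JQ1 library, and Sohlh2, a germ cell transcription factor, with -2.19 ± 0.18 (SE, adjusted p = 1.30e-06). Rpl10l, the testis paralog of a ribosomal protein, fell evenly at -1.48 ± 0.14 (SE, adjusted p = 5.06e-06). Dazl, an RNA-binding protein of germ cells, was the 1 member that was higher, at 0.66 ± 0.12 (SE, adjusted p = 7.30e-04), but it was not higher in each setting.

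Of 11 two-cell-like genes tested, 9 were lower and 0 higher, 6 of them Zscan4 genes, near-identical copies whose reads cannot be assigned with certainty. Of the 11 genes, 10 had a group with no count, and with those at the floor the median was -4.38. Zscan4f, of the Zscan4 cluster that marks the rare two-cell-like cells of ES cultures, stood at 0.130 and 0.0968 CPM with JQ1 against 11.6 and 5.27 CPM with DMSO in serum/LIF and at 0.114 and 0 CPM with JQ1 against 20.3 and 6.03 CPM with DMSO in 2iL. In the knockout it was near 0 in both treatments, at 0.0343 and 0 CPM with JQ1 against 0.305 and 0.224 CPM with DMSO. Zscan4c likewise stood at 0 and 0 CPM with JQ1 against 7.88 and 4.09 CPM with DMSO in serum/LIF and at 0 and 0.216 CPM with JQ1 against 18.5 and 4.93 CPM with DMSO in 2iL. By the test within settings, 10 of the 11 genes were lower in serum/LIF, 11 in 2iL and 0 in the knockout.

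**Figure D4:**
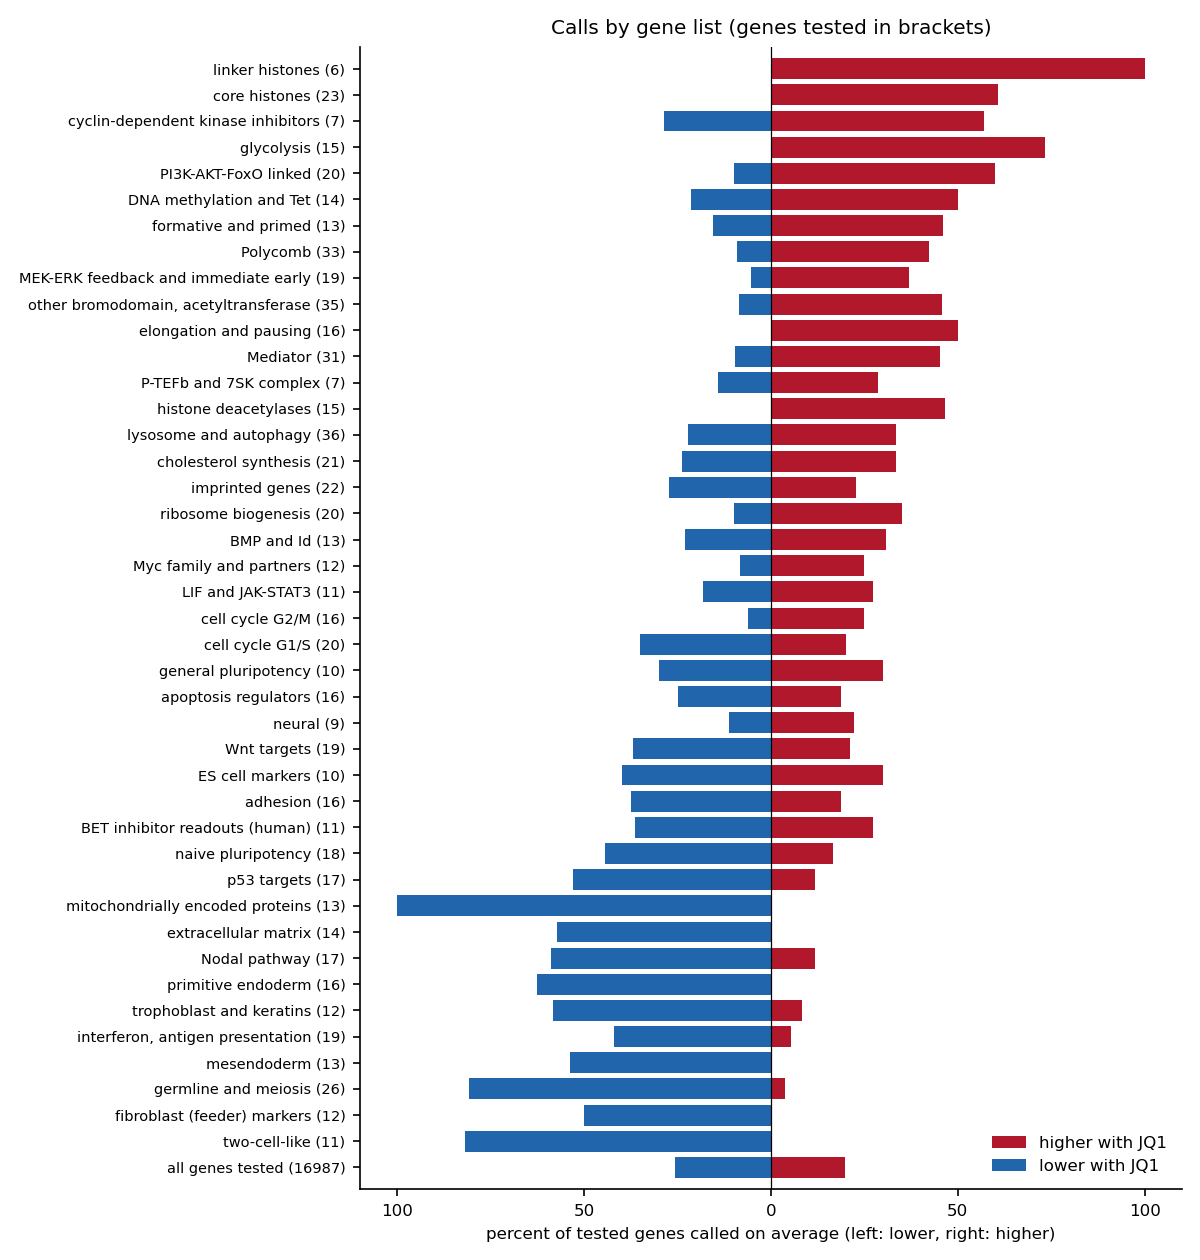
Percent of the tested genes of each list called on average, higher with JQ1 to the right in red and lower to the left in blue (horizontal axis), with the number tested in brackets. Lists run from the highest median average log2 fold change at the top to the lowest, with genes that had an empty group set at 3 counts per library, and the bottom bar gives all 16987 genes, 19.9% higher and 25.6% lower.

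On average, genes of mesendoderm and primitive endoderm fell or did not pass. Of 13 mesendoderm genes, 7 were lower on average and 0 higher. Within settings, 9 were lower in serum/LIF, 1 in 2iL and 2 in the knockout, against 12.8% of all genes in serum/LIF, 17.3% in 2iL and 19.5% in the knockout. The mesendoderm list too was chosen with earlier results of these data known. The 1 member lower in each setting was T, the brachyury factor of mesoderm. It stood at 15.3 and 13.1 CPM with JQ1 against 124 and 75.2 CPM with DMSO in serum/LIF, 0.456 and 0.517 CPM with JQ1 against 1.56 and 2.90 CPM with DMSO in 2iL, and 15.6 and 21.9 CPM with JQ1 against 74.2 and 80.3 CPM with DMSO in the knockout. Its average was -2.34 ± 0.19 (SE, adjusted p = 1.30e-06). Eomes and Gsc, factors of the primitive streak, had averages of -0.91 ± 0.11 (SE, adjusted p = 3.81e-05) and -1.40 ± 0.39 (SE, adjusted p = 0.0101), but Eomes had -1.71 in serum/LIF, 0.56 in 2iL and -1.59 in the knockout and differed between settings (adjusted p = 9.24e-04). Of 16 primitive endoderm genes, 10 were lower and 0 higher, among them the factor Gata6 at -1.51 ± 0.31 (SE, adjusted p = 0.00147) and the endocytic receptor Cubn at -2.43 ± 0.46 (SE, adjusted p = 8.53e-04). By setting, 5 of the 16 were lower in serum/LIF, 5 lower and 1 higher in 2iL, and 9 lower in the knockout. No member was lower in each setting. Hnf4a was expressed mainly in the knockout, at 1.34 and 0.947 CPM with JQ1 against 14.8 and 13.1 CPM with DMSO.

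Sparc, a matrix protein that fibroblasts also make, had an average of -0.68 ± 0.11 (SE, adjusted p = 3.58e-04) beside the lower sums of fibroblast markers given above. On average 6 of 12 fibroblast markers tested were lower and 0 higher, a share called of 50% against 45.6% over all genes. The part of fibroblasts in the other lists was not tested. In 2iL, 10 of 14 fibroblast markers were under 1 CPM in all 4 libraries. The median of the primitive endoderm list was -0.83 in 2iL, with 5 genes lower and 1 higher. It was -0.78 in serum/LIF, with 5 lower, and -0.74 in the knockout, with 9 lower. The part of fibroblasts in these values was not tested.

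Of 12 genes of trophoblast and keratins, 7 were lower and 1 higher. Krt8 and Krt19, keratins of simple epithelia, had averages of -1.59 ± 0.27 (SE, adjusted p = 4.23e-04) and -1.82 ± 0.47 (SE, adjusted p = 0.00706), and the trophoblast factor Tfap2c rose by 0.99 ± 0.13 (SE, adjusted p = 5.96e-05). Neither keratin nor Tfap2c was called in each setting, and the 1 list member lower in each was Krt42. Of 9 neural genes, 2 were higher, Sox11 and Sox21, and 1 lower, the neuronal tubulin Tubb3 at -0.52 ± 0.10 (SE, adjusted p = 0.00118). This is a share called of 33.3% against 45.6% over all genes, and Tubb3 was not lower in each setting. Sox21 had 0.32 in serum/LIF, 1.05 in 2iL and 4.17 in the knockout and differed between settings (adjusted p = 1.33e-04). Of 13 formative and primed genes, 6 were higher, among them Dnmt3b and the cadherin Cdh2 at 1.13 ± 0.11 (SE, adjusted p = 4.70e-06), and 2 lower, among them Fgf5 at -1.97 ± 0.34 (SE, adjusted p = 4.47e-04). Dnmt3b was the 1 formative or primed gene higher in each setting.

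The average hid opposite or unequal responses in the pluripotency network. Of 18 naive pluripotency genes, 3 were higher and 8 lower on average, but 14 differed between settings, against 11.5% of all genes. The list's median was -0.85 in serum/LIF, 0.31 in 2iL and -0.28 in the knockout. Since the naive list was chosen with earlier results of these data known, these counts are not an independent result. Nanog stood at 44.3 and 59.6 CPM with JQ1 against 140.1 and 174 CPM with DMSO in serum/LIF, 908 and 969 CPM with JQ1 against 846 and 756 CPM with DMSO in 2iL, and 357 and 345 CPM with JQ1 against 339.7 and 372 CPM with DMSO in the knockout. It was lower in serum/LIF alone by the test within settings, and the difference between settings passed (adjusted p = 6.07e-04). Its average of -0.46 ± 0.0817 (SE, adjusted p = 5.49e-04) had the other sign without the serum/LIF setting, at 0.13. Prdm14, a repressor that guards the naive state, had -4.09 in serum/LIF, 0.019 in 2iL and -2.70 in the knockout. Tcl1, an AKT co-activator, was the 1 naive gene lower in each setting, at -2.02 ± 0.17 (SE, adjusted p = 1.66e-06). Gbx2, a homeobox factor, rose with an average of 0.80 ± 0.13 (SE, adjusted p = 2.59e-04), but it was not higher in each setting.

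Of 10 general pluripotency genes, 3 were higher and 3 lower. Pou5f1, which encodes Oct4, stood at 417 and 652 CPM with JQ1 against 544 and 582 CPM with DMSO in serum/LIF, 844 and 801 CPM with JQ1 against 959 and 762 CPM with DMSO in 2iL, and 819.9 and 902 CPM with JQ1 against 740.2 and 836 CPM with DMSO in the knockout. The groups overlapped in all 3 settings, and the average was -0.0034 ± 0.0999 (SE, adjusted p = 0.9996). Sox2, its partner, rose by 0.47 ± 0.13 (SE, adjusted p = 0.0099), but it was not higher in each setting. Foxd3, a forkhead factor, had -1.18 in serum/LIF, 0.031 in 2iL and -4.30 in the knockout and differed between settings (adjusted p = 0.00109).

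Genes with the strongest evidence of a difference between settings, among those called on average, show how far an average can stand from its parts. Apela, a peptide ligand of the apelin receptor, stood at 32.6 and 35.5 CPM with JQ1 against 43.8 and 40.4 CPM with DMSO in serum/LIF, 4.56 and 4.61 CPM with JQ1 against 50.4 and 51.0 CPM with DMSO in 2iL, and 69.0 and 65.5 CPM with JQ1 against 93.9 and 100.3 CPM with DMSO in the knockout. It fell to about 5 CPM in 2iL and by much less in the knockout, and in serum/LIF the groups were apart but the test did not pass. The average was -1.43 ± 0.0635 (SE, adjusted p = 1.56e-08), with an adjusted p of 1.50e-06 for the difference. Smo, the transducer of Hedgehog signals, stood at 69.9 and 66.9 CPM with JQ1 against 50.7 and 50.8 CPM with DMSO in serum/LIF, 6.89 and 7.50 CPM with JQ1 against 27.6 and 27.6 CPM with DMSO in 2iL, and 23.6 and 24.8 CPM with JQ1 against 40.4 and 39.0 CPM with DMSO in the knockout. It was higher with JQ1 in serum/LIF and lower in the other settings, with an average of -0.74 ± 0.0619 (SE, adjusted p = 1.46e-06) and an adjusted p of 4.62e-05 for the difference.

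Mmp14, a membrane-bound metalloproteinase, stood at 100.2 and 76.8 CPM with JQ1 against 126 and 112 CPM with DMSO in serum/LIF, 0.512 and 0.302 CPM with JQ1 against 12.7 and 13.4 CPM with DMSO in 2iL, and 6.90 and 5.23 CPM with JQ1 against 27.4 and 31.2 CPM with DMSO in the knockout. It fell in 2iL and in the knockout, and in serum/LIF the groups were apart but the test did not pass. Gli2, a transcription factor of the Hedgehog pathway, stood at 8.38 and 5.76 CPM with JQ1 against 27.5 and 29.5 CPM with DMSO in serum/LIF, 108 and 101 CPM with JQ1 against 111 and 143 CPM with DMSO in 2iL, and 2.92 and 4.18 CPM with JQ1 against 55.6 and 55.0 CPM with DMSO in the knockout. It fell in serum/LIF and the knockout, while the change in 2iL did not pass. The difference between settings had an adjusted p of 5.86e-05 for Mmp14 and 5.86e-05 for Gli2.

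**Figure D5:**
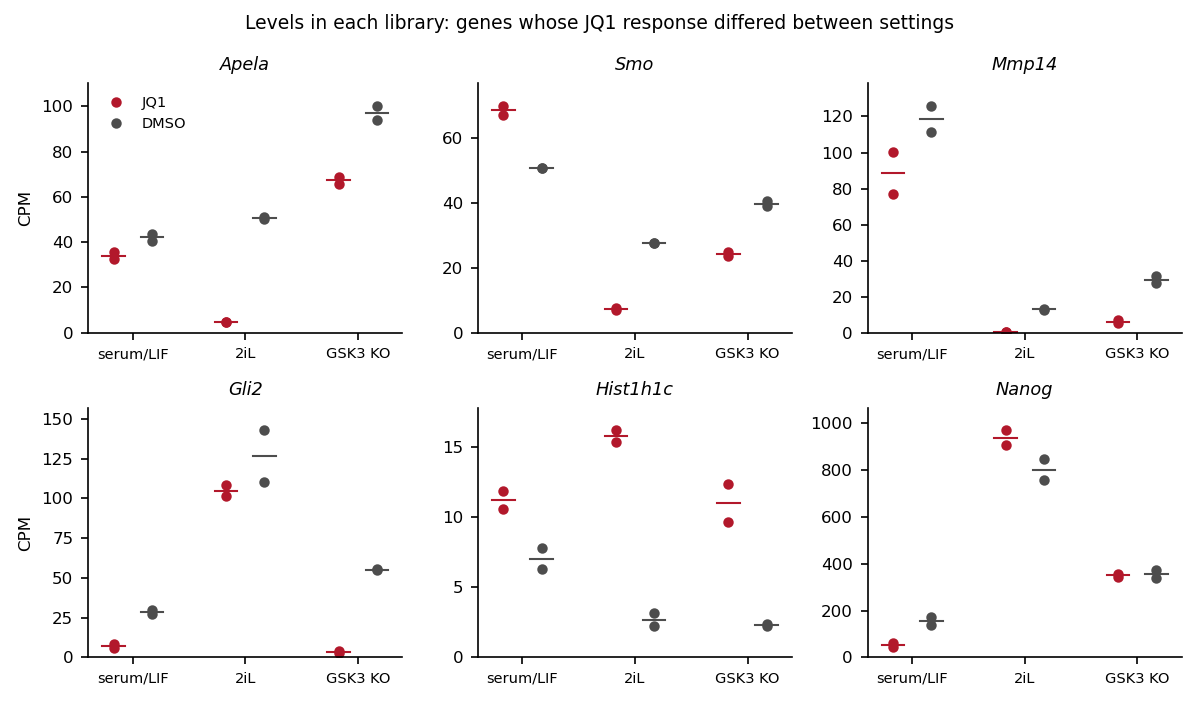
Level of 6 genes in each library in CPM (vertical axes, from 0), by setting along the horizontal axis, with JQ1 in red left of DMSO in grey, points for libraries and bars for means of 2. Apela and Smo fell most in 2iL, Gli2 had its smallest change in 2iL, Hist1h1c rose least in serum/LIF, and Nanog fell in serum/LIF.

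Signalling genes gave mixed averages. Ctnnb1, which encodes beta-catenin, stood at 789 and 772 CPM with JQ1 against 568 and 521 CPM with DMSO in serum/LIF, 939.6 and 897 CPM with JQ1 against 673 and 643 CPM with DMSO in 2iL, and 849 and 836 CPM with JQ1 against 579 and 561 CPM with DMSO in the knockout. Every JQ1 library was above every DMSO library of the same setting, and its rise of 0.52 ± 0.0524 (SE, adjusted p = 6.41e-06) was even, with 0.52 in serum/LIF, 0.48 in 2iL and 0.56 in the knockout. Gsk3a and Gsk3b rose by 0.30 ± 0.0750 (SE, adjusted p = 0.00525) and 0.47 ± 0.0749 (SE, adjusted p = 2.42e-04). Gsk3a was called in no single setting, and Gsk3b was called in serum/LIF and in 2iL but not in the knockout. Of 19 Wnt targets, 4 were higher and 7 lower, with a median of -0.14. Among them Notum, a secreted Wnt inhibitor, fell with an average of -1.85 ± 0.13 (SE, adjusted p = 3.55e-07) and most in serum/LIF, with -3.63 in serum/LIF, -1.11 in 2iL and -0.81 in the knockout.

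Of 19 genes of MEK-ERK feedback and immediate early response, 7 were higher and 1 lower, a share called of 42.1% against 45.6% over all genes. By setting, 5 were higher and 1 lower in serum/LIF, 6 higher and 0 lower in 2iL, and 3 higher and 5 lower in the knockout. None was called the same way in each setting. The ERK phosphatase Dusp4 rose by 1.05 ± 0.20 (SE, adjusted p = 8.25e-04) and Egr1 by 1.03 ± 0.23 (SE, adjusted p = 0.00252). Egr1 had 1.80 in serum/LIF, 1.38 in 2iL and -0.11 in the knockout and differed between settings (adjusted p = 0.0175). Of 13 genes of BMP signalling and the Id family, 4 were higher and 3 lower, with Smad6, an inhibitory Smad, lower in each setting at -1.12 ± 0.12 (SE, adjusted p = 1.08e-05). The share of these genes called was 53.85% against 45.6% over all genes. Of 11 genes of LIF and STAT3 signalling, 3 were higher and 2 lower, a share called of 45.5% against 45.6% over all genes. None of the 11 was called the same way in each setting. Socs3, the feedback inhibitor, and Ptpn11, the phosphatase Shp2, rose by 0.47 ± 0.0755 (SE, adjusted p = 2.69e-04) and 0.49 ± 0.0751 (SE, adjusted p = 1.98e-04), and Stat3 had -0.14 in serum/LIF, 0.14 in 2iL and -0.89 in the knockout.

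The cyclin genes Ccnd1 and Ccnd2 fell, and some inhibitors of cyclin-dependent kinases rose. Ccnd1, a D-type cyclin, stood at 122 and 89.8 CPM with JQ1 against 174 and 142 CPM with DMSO in serum/LIF, 47.2 and 62.1 CPM with JQ1 against 145 and 166 CPM with DMSO in 2iL, and 43.3 and 49.8 CPM with JQ1 against 135 and 147 CPM with DMSO in the knockout. It was lower in each setting, with an average of -1.23 ± 0.0981 (SE, adjusted p = 9.94e-07). Of 20 G1/S genes, 4 were higher, among them E2f1 at 0.42 ± 0.0845 (SE, adjusted p = 0.00146) and the sliding clamp Pcna at 0.39 ± 0.0581 (SE, adjusted p = 1.68e-04), and 7 lower. No G1/S gene was higher in each setting. Of 16 G2/M genes, 4 were higher and 1 lower, a share called of 31.25% against 45.6% over all genes, with a median of -0.038. Of 7 inhibitors of cyclin-dependent kinases, 4 were higher, among them Cdkn1b (p27), a FoxO target, at 0.59 ± 0.0744 (SE, adjusted p = 4.44e-05) and Cdkn2c (p18) at 1.40 ± 0.19 (SE, adjusted p = 6.18e-05), and 2 lower. Within settings, 1 was higher in serum/LIF, 1 in 2iL and 5 in the knockout. No inhibitor was called the same way in each setting.

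Of 12 genes of the Myc family and its partners, 3 were higher and 1 lower, Mycl at -0.57 ± 0.0953 (SE, adjusted p = 3.94e-04). This share called was 33.3% against 45.6% over all genes, and none was called the same way in each setting. Of 17 p53 targets, 2 were higher, among them the ribonucleotide reductase subunit Rrm2b at 0.83 ± 0.11 (SE, adjusted p = 5.04e-05), and 9 lower, among them the death receptor Fas at -2.32 ± 0.46 (SE, adjusted p = 0.00122), or -3.14 without the first 2iL JQ1 library, and the membrane protein Perp at -1.19 ± 0.17 (SE, adjusted p = 1.13e-04). Within settings, 1 was higher and 8 lower in serum/LIF, 1 was higher and 6 lower in 2iL, and 4 were higher and 1 lower in the knockout, where the median was 0.10. No p53 target, Fas and Perp included, was lower in each setting. Of 16 regulators of apoptosis, 3 were higher, among them Bcl2l11 (Bim), a FoxO target, at 0.69 ± 0.0927 (SE, adjusted p = 6.87e-05), and 4 lower, among them Bak1 at -0.49 ± 0.0795 (SE, adjusted p = 3.13e-04). Their share called was 43.75% against 45.6% over all genes, and none was called the same way in each setting.

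Most glycolytic genes were higher, and mitochondrially encoded genes fell. Of 15 glycolysis genes, 11 were higher and 0 lower, with a median of 0.41, and 8 differed between settings. Within settings, 2 were higher in serum/LIF, 12 in 2iL and 9 in the knockout, against 8.54% of all genes in serum/LIF, 11.2% in 2iL and 14.6% in the knockout. The list's median was 0.18 in serum/LIF, 0.77 in 2iL and 0.41 in the knockout. Since the glycolysis list was chosen with earlier results of these data known, these counts are not an independent result. Gapdh and Pkm were higher in each setting, at 0.59 ± 0.0598 (SE, adjusted p = 6.79e-06) and 0.69 ± 0.0568 (SE, adjusted p = 1.22e-06). Pfkl, the liver-type phosphofructokinase, stood at 271 and 308 CPM with JQ1 against 254 and 239 CPM with DMSO in serum/LIF, 247 and 222 CPM with JQ1 against 67.8 and 66.3 CPM with DMSO in 2iL, and 338 and 345 CPM with JQ1 against 218 and 226 CPM with DMSO in the knockout. It rose most in 2iL, where its DMSO level was lowest, with an average of 0.89 ± 0.0578 (SE, adjusted p = 2.21e-07). The difference between settings passed (adjusted p = 1.81e-04). Both Gapdh and Pkm have many pseudogenes and had counts that were not whole in 12 of 12 libraries.

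All 13 mitochondrially encoded protein genes were lower, with a median of -0.46 and averages from -0.66 to -0.30. The 1 gene lower in each setting was mt-Co1, a subunit of cytochrome oxidase, at -0.61 ± 0.0749 (SE, adjusted p = 3.20e-05), and mt-Cytb had the smallest fall, at -0.30 ± 0.0711 (SE, adjusted p = 0.004). These falls go with the lower mitochondrial share of counts given above, and leaving all mitochondrially encoded genes out of the fit gave 7763 genes called, 3493 higher and 4270 lower.

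Of 20 ribosome biogenesis genes, 7 were higher, among them the methyltransferase Fbl at 0.37 ± 0.0733 (SE, adjusted p = 0.00123), and 2 lower, among them Ppan at -0.32 ± 0.0577 (SE, adjusted p = 5.79e-04). That is a share called of 45% against 45.6% over all genes, with none called the same way in each setting. Of 21 cholesterol synthesis genes, 7 were higher, among them mevalonate kinase Mvk at 0.56 ± 0.0886 (SE, adjusted p = 2.42e-04), 5 lower, among them the isomerase Ebp at -0.45 ± 0.0825 (SE, adjusted p = 7.03e-04), and 9 differed between settings. Within settings, 10 of them were higher in serum/LIF and 8 lower in the knockout, and none was called the same way in each setting. Of 36 lysosome and autophagy genes, 12 were higher and 8 lower. The mitophagy receptors Bnip3 and Bnip3l rose by 1.14 ± 0.16 (SE, adjusted p = 1.18e-04) and 0.65 ± 0.0631 (SE, adjusted p = 5.31e-06), and Map1lc3b, of the autophagosome membrane, by 0.32 ± 0.0619 (SE, adjusted p = 0.001). Tfeb, the master factor of lysosomal genes, fell with an average of -1.45 ± 0.11 (SE, adjusted p = 5.39e-07), the lysosomal glucosidase Gaa with -1.13 ± 0.0861 (SE, adjusted p = 6.78e-07) and the autophagy gene Atg9b with -3.38 ± 0.24 (SE, adjusted p = 4.89e-07).

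Of 19 genes of interferon response and antigen presentation, 8 were lower and 1 higher, a share called of 47.4% against 45.6% over all genes. Irf1, an interferon-induced transcription factor, stood at 27.4 and 30.3 CPM with JQ1 against 76.8 and 56.1 CPM with DMSO in serum/LIF, 8.26 and 11.3 CPM with JQ1 against 17.2 and 23.2 CPM with DMSO in 2iL, and 11.1 and 9.19 CPM with JQ1 against 18.8 and 17.8 CPM with DMSO in the knockout. It was lower in each setting at -1.03 ± 0.12 (SE, adjusted p = 1.54e-05), as were the antiviral enzyme gene Oas1a at -2.08 ± 0.12 (SE, adjusted p = 1.03e-07) and the peptide transporter Tap1 at -1.60 ± 0.15 (SE, adjusted p = 2.74e-06). Of 22 imprinted genes, 5 were higher, among them Peg10 at 1.14 ± 0.17 (SE, adjusted p = 1.81e-04), and 6 lower, with Phlda2 lower in each setting at -1.81 ± 0.14 (SE, adjusted p = 7.91e-07). Called imprinted genes made up 50% against 45.6% over all genes, and no imprinted gene was higher in each setting.

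Of 16 adhesion genes, 3 were higher and 6 lower, and 9 differed between settings. Epcam, an epithelial adhesion molecule, had 0.53 in serum/LIF, -1.44 in 2iL and -0.70 in the knockout, and Ocln, of tight junctions, had 0.34 in serum/LIF, -1.90 in 2iL and -2.95 in the knockout. Of 14 extracellular matrix genes chosen to lie outside the fibroblast list, 8 were lower and 0 higher on average. Within settings, 6 were lower and 1 higher in serum/LIF, 3 lower and 1 higher in 2iL, where fibroblast markers were lowest, and 11 lower and 0 higher in the knockout. Nid1, the basement membrane linker nidogen, stood at 101 and 69.8 CPM with JQ1 against 153 and 175 CPM with DMSO in serum/LIF, 305 and 207 CPM with JQ1 against 565 and 548 CPM with DMSO in 2iL, and 55.1 and 46.0 CPM with JQ1 against 201 and 195 CPM with DMSO in the knockout. It was lower in each setting, with an average of -1.34 ± 0.11 (SE, adjusted p = 1.11e-06).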

How the data were processed

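Messenger RNA libraries were prepared with an mRNA kit and sequenced from both ends, per the labels' protocols. Per the submitters' processing notes, mm10 was the build and the tools included STAR 2.5.2, DESeq2 1.18.1, RSEM and bcl2fastq, and the strand setting is not given in the sources used here. The values used are the authors' expected counts per gene (estimated counts, not scaled to depth), in 1 deposited table per library, with 6.11% to 8.71% of values not whole. Symbols and coordinates come from GENCODE M21 (GRCm38), which held 52403 of 52550 identifiers (99.72%). Without a strand setting, overlapping and antisense genes cannot be told apart.

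Expected counts were rounded and fitted with edgeR 4.0.16 in R 4.3.3 (filterByExpr with a minimum count of 10 and total of 15, TMM scaling, 6 group means). Tests are quasi-likelihood F tests, two-sided, with Benjamini-Hochberg adjustment over all genes and calls under 0.05. The SE is the log2 fold change over the square root of F. There were 6 residual degrees of freedom, and the common coefficient of variation was 0.129. The average is the mean of the 3 contrasts, and a difference between settings is a joint test of 2 contrasts. The test was checked on simulated counts of 16987 genes, 200 changed alike in each setting and 200 changed in 1 setting. Of genes changed alike by log2 1 or 2, 96% and 100% were called on average but 63% and 56% were called even. Of genes changed in 1 setting by log2 1 or 2, 53% and 87% were called different. Unchanged genes made up 4.91% of average calls.

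Named genes were the 10 highest and 10 lowest averages among genes called in each setting with at least 5 CPM, the 5 with the smallest range over settings each way with log2 of at least 1, the 5 with the strongest difference between settings, 13 genes set by name, and 2 to 4 examples of each list, with further members named after their values were seen. The members and lists were chosen with earlier results of these data known, so no list count is an independent result. Alternatives were DESeq2 1.42.0, limma 3.58.1 (voom with quality weights), other scaling, filters, thresholds and models, and each library or setting left out. No library was excluded. Some genes that these rules select are not reported here.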

Additional observations from a re-analysis of the deposited data

Results flagged for a closer look

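The test of a difference between settings passed 1959 of 16987 genes (11.5%). Among the 42 genes named by rule, 14 passed it, and each follows with the adjusted p of the difference (edgeR). Apela, Smo, Gli2 and Mmp14 were picked by the p of this same test, so the count of 14 is no result about named genes. For Apela (1.50e-06) the log2 fold changes were -0.31 in serum/LIF, -3.47 in 2iL and -0.53 in the knockout. For Smo (4.62e-05) they were 0.43 in serum/LIF, -1.94 in 2iL and -0.71 in the knockout. For Gli2 (5.86e-05) they were -2.00 in serum/LIF, -0.27 in 2iL and -3.99 in the knockout, and for Mmp14 (5.86e-05) -0.43 in serum/LIF, -5.03 in 2iL and -2.25 in the knockout. Nanog (6.07e-04) had -1.60 in serum/LIF, 0.23 in 2iL and -0.021 in the knockout, and Hist1h1c (0.00345) had 0.66 in serum/LIF, 2.55 in 2iL and 2.25 in the knockout. Sox11 (0.0127) rose least in serum/LIF, and Nphs1 (0.0175) and Lefty1 (0.024) fell least there. Brd2 (0.0233) rose least in the knockout. Myc (0.0346) and Cdk6 (0.0417) had 0.33 in serum/LIF, -0.47 in 2iL and -0.41 in the knockout, and 0.31 in serum/LIF, -0.62 in 2iL and -0.66 in the knockout. Accsl (0.0461) fell least in 2iL. Prss50 (0.0393) fell least in serum/LIF, and its 2iL value rests on a JQ1 group with no count. The same test passed 47 of 144 genes named in the text, and that count also holds the genes picked by it.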

How the results depend on the processing

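The average effect called 5607 to 8235 genes under the other settings of scaling, filter, model and tool, or without 1 culture setting, that keep the 0.05 threshold alone, against 7739, and 2493 with a log2 fold change of at least 1 (136 higher and 2357 lower). That threshold left 570 genes called in each setting (1207 without it). Genes that differed between settings numbered 1959, 3116 with DESeq2 and 3948 with no low-count filter. Even genes numbered 2839, and 735 with a margin of 0.58 log2. With each library left out in turn, its group held 1 library that was assumed to vary like the others. The counts then ran from 6826 to 7774 for the average, 796 to 1095 for genes called in each setting, 785 to 3022 for genes that differed and 1986 to 2877 for even genes, and the mitochondrial share differed by -3.27 to -2.46 percentage points. Counting only genes with a mean of at least 5 CPM (5310 genes), and thinning all libraries to equal depth (7458 genes), were chosen after seeing the data.

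Replicate numbers were not used as a pairing, since nothing says that they mark a shared culture. Correlations of same-numbered deviations ran from -0.171 to 0.161 over all pairs of groups. Between JQ1 and DMSO of the same setting they were 0.161 in serum/LIF, 0.0988 in 2iL and 0.103 in the knockout, so a weak pairing is not excluded. The fit with replicate number as a block called 8060 genes on average, 1365 in each setting, 2668 that differed and 3104 even.

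For the 144 genes named, 3374 of 3444 single-gene results kept direction and side of the threshold, and with DESeq2, RLE scaling, the block and equal depth all 144 did. The sign turned for Nanog, which was called with an average of -0.46 and stood at 0.13 without serum/LIF, and for 3 genes near 0 that were not called. Brd3 was -0.048 without the knockout. Pou5f1 was 0.022 with no filter, 0.0032 without mitochondrial genes, 0.057 without serum/LIF, 0.028 without 2iL and -0.11 to 0.098 with libraries left out. Serpini1 was 0.0096 with voom, 0.011 with no filter, 0.021 without 2iL, 0.067 without the knockout and -0.12 to 0.14 with libraries left out. Calls ended without serum/LIF for Brdt, Ebp, Egr1, Gsc, Med6, Sp140 and mt-Cytb, without 2iL for Aff4, Cdk6, Dnmt3l, Epcam, Med6, Peg10, Smo and Tubb3, and without the knockout for Brdt, Cdk6, Fbl, Foxd3, Krt19, Map1lc3b, Socs3, Sox2 and Stat3. In the additive model they ended for Aff4, Brdt, Cdk6, Dnmt3l, Epcam, Med6, Nanog, Smo, Stat3 and Tubb3, and Gata6 moved to -0.93. The cause was not tested.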
